A study of Mus musculus with 2 samples.

Results

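The G2 and mitosis genes described here are 52 genes given by symbol, all of them found among the 28692 gene rows of 2 single-cell RNA libraries of mouse small cell lung cancer. Most of their products act after DNA synthesis, when the cell commits to division, condenses its chromosomes, attaches them to the spindle and cuts itself apart. Both libraries came from lung tumours of mice of mixed strain with the driver CGRPCreER/+, floxed alleles that include Rbf/f and P53f/f, and the reporter Rosa26mTmG. In this design Cre recombinase, driven in neuroendocrine cells that make CGRP, deletes the floxed genes, Rb and p53 among them, and switches a membrane reporter to GFP, so both groups carry the same deletions. Mice were given saline (the vehicle library) or cisplatin at 5 mg per kg (the cisplatin library) every 4 days for 2 weeks. Dissociated live GFP-positive cells were sorted and 5000 cells were loaded for each library. A protocol for the loading step also names etoposide, and whether that drug was given could not be settled. The age and number of animals behind each library are not given in the sources used here. Each group is 1 library, so no difference between the groups could be tested and every interval below covers counting error only.

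Genes of G2 and mitosis are silent in resting cells and are switched on together late in the cell cycle. In resting cells the DREAM complex holds many of them off. B-MYB with the MuvB core, and FOXM1, then drive them in G2. Rb and p53, both deleted in these tumours, are among the proteins that normally keep this programme off. Mki67 encodes the Ki-67 antigen, the marker pathologists use to count dividing tumour cells, and small cell lung cancer is known for very high Ki-67 counts. Cisplatin links bases within DNA and so triggers the checkpoints that act before mitosis.

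The cells that passed the filters numbered 3672 in vehicle and 4218 in cisplatin, with medians of 8206 and 5940 unique molecular identifiers (UMIs, each standing for 1 captured RNA molecule). Totals of all barcodes were 32519922 and 28777462 UMIs. All 10 neuroendocrine markers were detected in both libraries, and their summed level was 6125 CPM (UMIs of a gene per 1000000 UMIs of the class of cells) for vehicle and 8427 for cisplatin. Markers of other cells of the lung were also present: 12 immune genes summed to 79.4 and 33.2 CPM, 5 erythroid genes to 53.7 and 0.733 CPM, 6 fibroblast genes (5 detected) to 43.2 and 20.9 CPM, 6 endothelial genes to 13.3 and 9.87 CPM, 5 alveolar type 2 genes to 49.3 and 188 CPM, and 3 club cell genes to 820 and 2062 CPM. The libraries shared 23 barcodes.

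The 2 libraries gave these genes nearly the same part of their RNA, while its make-up differed. The 52 genes made up 0.782% of UMIs in vehicle and 0.829% in cisplatin. Hmgb2, a chromatin protein that bends DNA, alone made up 15.9% of the UMIs of the 52 genes in vehicle and 19.8% in cisplatin. Cks2, which binds the kinase CDK1 and helps it act on substrates that are already phosphorylated, made up 4.40% and 7.57%. Mki67 went the other way, from 2.95% to 1.10%.

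Of the 52 genes, 4 were at least 1.5-fold higher in the cisplatin library (7.69%) and 2 were at least 1.5-fold lower (3.85%), when all cells were summed. Among the 13446 genes with at least 50 UMIs in the libraries together, 8.09% were that much higher and 21.7% that much lower. The share that was higher was thus near the background. The 52 genes split evenly, with 26 log2 ratios above 0 and 26 below, and a median of -0.01 against -0.16 for all genes measured. The log2 ratio here is cisplatin over vehicle with 1 CPM added to each level.

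The 4 higher genes were Cks2, Cks1b, Kif20b and Nusap1. Cks2 stood at 344 CPM (95% Poisson interval 338 to 351) in vehicle and 628 CPM (619 to 637) in cisplatin, and its close relative Cks1b at 150 CPM (146 to 155) and 236 CPM (231 to 242). Kif20b, a kinesin of the late spindle and cytokinesis, stood at 39.3 CPM (37.2 to 41.5) and 61.0 CPM (58.2 to 63.9). Nusap1, which binds and bundles spindle microtubules, stood at 159 CPM (155 to 163) and 239 CPM (234 to 245). The 2 lower genes were Mki67 and Cenpe. Mki67 stood at 231 CPM (226 to 236) in vehicle and 91.5 CPM (88.0 to 95.04) in cisplatin, a 2.53-fold lower level, and the kinetochore motor gene Cenpe at 105 CPM (101 to 108) and 61.5 CPM (58.6 to 64.4). In each of these 6 genes the intervals of the libraries were far apart.

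The share of calls in each direction depended on the scaling, because the median gene was below 0 in CPM. Scaling with TMM factors, which use trimmed means, raised the median of all genes by 0.16 and left 11.8% of genes higher and 14.3% lower. Median-of-ratios size factors moved it up by 0.18 and left 12.6% and 13.4%. Of the 52 genes, 5 were then higher and 2 lower under TMM, and 6 and 2 under median of ratios, with 33 and 35 log2 ratios above 0.

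Promoters of these genes carry known sequence elements. The cell cycle homology region, with core TTTGAA or TTCGAA, is bound by the MuvB core of the DREAM and B-MYB complexes, and CCAAT boxes are bound by NF-Y. RefSeq promoters (GRCm38.p6, 250 bases before to 50 after the start) were found for 46 of the 52 genes. Read on both strands, TTTGAA was present in 33 of these 46 (71.7%) and in 20.2% of the 27025 genes in the table. TTCGAA, which reads the same on both strands, was present in 4 (8.70%) and in 1.80%, and CCAAT in 35 (76.1%) and in 41.1%. Either form of the homology region core was present in 36 of 46 genes (78.3%), against 21.7% of all genes. The 6 promoters shown belong to genes at the extremes of the comparison, with capitals marking TTTGAA or its reverse complement. Mki67 (chr7:135716330-135716629, minus strand) and Cenpf (chr1:189688037-189688336, minus strand) were low in cisplatin and hold the core. Cenpe (chr3:135212313-135212612, plus strand) was low too and holds none. Cks1b (chr3:89418242-89418541, minus strand) and Kif20b (chr19:34922108-34922407, plus strand) were high and hold it, whereas Cks2 (chr13:51644982-51645281, plus strand) was high and holds none.
Mki67: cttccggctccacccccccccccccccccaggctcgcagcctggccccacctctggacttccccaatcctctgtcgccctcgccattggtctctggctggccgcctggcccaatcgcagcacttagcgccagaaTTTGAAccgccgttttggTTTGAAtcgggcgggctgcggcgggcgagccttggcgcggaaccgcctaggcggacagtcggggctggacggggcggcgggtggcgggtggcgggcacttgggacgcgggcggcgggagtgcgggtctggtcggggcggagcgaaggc
Cenpf: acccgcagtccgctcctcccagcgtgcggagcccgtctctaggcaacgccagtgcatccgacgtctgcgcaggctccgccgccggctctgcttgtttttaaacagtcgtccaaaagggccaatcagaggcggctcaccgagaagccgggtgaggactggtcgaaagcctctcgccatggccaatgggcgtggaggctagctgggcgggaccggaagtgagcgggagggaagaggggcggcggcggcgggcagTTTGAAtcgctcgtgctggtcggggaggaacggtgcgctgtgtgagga
Cenpe: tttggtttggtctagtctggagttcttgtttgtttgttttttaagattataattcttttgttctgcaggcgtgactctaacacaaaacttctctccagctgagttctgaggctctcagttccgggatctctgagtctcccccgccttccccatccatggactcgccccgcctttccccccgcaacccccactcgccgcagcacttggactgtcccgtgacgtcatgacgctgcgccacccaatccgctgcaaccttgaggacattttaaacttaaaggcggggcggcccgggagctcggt
Cks1b: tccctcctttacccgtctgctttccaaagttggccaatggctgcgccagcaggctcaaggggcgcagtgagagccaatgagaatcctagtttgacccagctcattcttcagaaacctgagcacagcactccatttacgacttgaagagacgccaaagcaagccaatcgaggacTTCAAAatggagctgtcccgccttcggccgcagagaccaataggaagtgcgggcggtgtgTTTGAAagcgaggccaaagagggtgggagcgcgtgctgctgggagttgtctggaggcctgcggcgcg
Kif20b: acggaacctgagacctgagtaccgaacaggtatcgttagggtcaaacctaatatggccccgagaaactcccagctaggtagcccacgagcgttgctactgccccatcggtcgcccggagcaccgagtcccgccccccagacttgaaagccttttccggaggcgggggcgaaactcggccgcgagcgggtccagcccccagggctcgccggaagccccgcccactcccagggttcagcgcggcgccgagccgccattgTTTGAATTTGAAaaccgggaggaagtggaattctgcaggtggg
Cks2: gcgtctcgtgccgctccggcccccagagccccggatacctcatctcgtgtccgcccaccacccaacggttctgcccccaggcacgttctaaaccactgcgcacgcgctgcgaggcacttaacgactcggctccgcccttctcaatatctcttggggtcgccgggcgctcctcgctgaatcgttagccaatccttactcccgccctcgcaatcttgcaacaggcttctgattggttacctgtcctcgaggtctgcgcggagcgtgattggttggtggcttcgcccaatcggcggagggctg
A match is a description of these letters and not a bound site. In mitosis-marked cells, defined next, the median log2 ratio was -0.28 for the 36 genes with either core and -0.11 for the 10 without, and genes of both kinds lay on both sides of 0.

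To look inside dividing cells without using the 52 genes to find them, a cell was called mitosis-marked when it held at least 2 UMIs over 12 other mitotic genes, after each cell had been thinned to 3000 UMIs. The marking genes were Plk1, Ccnb1, Ccna2, Prc1, Pbk, Spc25, Racgap1, Kif22, Kif20a, Bub1b, Mad2l1 and Knstrn, and cells with 0 of these UMIs were called unmarked. Cells below 3000 UMIs were left out, 146 in vehicle and 361 in cisplatin. Marked cells made up 35.3% of the cells in vehicle (1243 of 3526, exact 95% binomial interval 33.7 to 36.9) and 42.7% in cisplatin (1647 of 3857, 41.1 to 44.3). The libraries were close to each other at 2 to 4 marking UMIs, with 562 and 553 cells. The excess lay in cells with 5 or more, 681 (19.3%, 18.0 to 20.7) and 1094 (28.4%, 26.9 to 29.8). Within that class the vehicle cells held more marking UMIs, with medians of 13 and 11. The marking genes themselves did not all lie on 1 side: in all cells Spc25, Pbk, Mad2l1 and Ccnb1 had log2 ratios between 0.65 and 0.79, while Plk1 stood at -0.27. What part this has in the shares was not tested. With 16 other marking genes the shares were 21.4% and 27.6%.

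**Figure D1:**
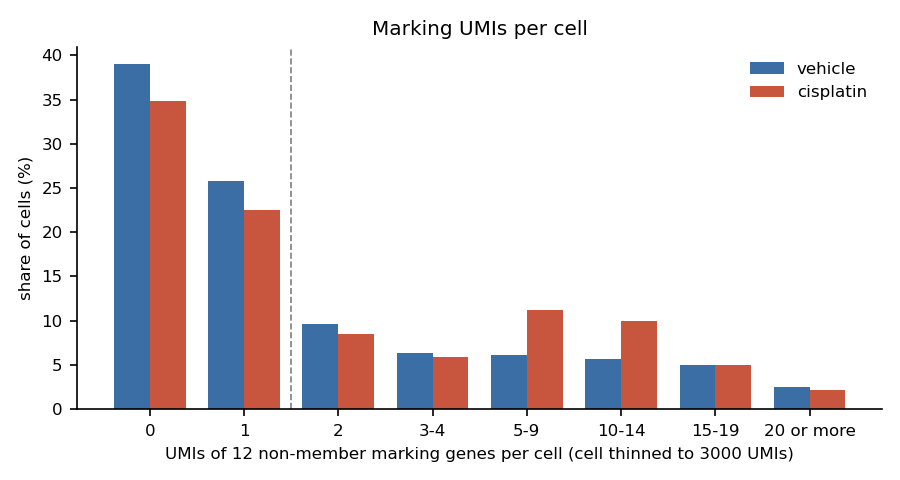
Share of cells (%, vertical axis) by the number of UMIs of the 12 marking genes in a cell thinned to 3000 UMIs (horizontal axis), with 1 bar for each library and a dashed line at the limit of 2 UMIs for a mitosis-marked cell. Vehicle has more cells at 0 (39.0% against 34.8%), and cisplatin has more cells in the bins from 5 to 14 UMIs.

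Nearly every one of the 52 genes was concentrated in the marked cells of both libraries. The level in marked cells exceeded that in unmarked cells of the same library by 1.5-fold for 51 of 52 genes in vehicle and 51 in cisplatin, against 10.3% and 11.9% of all genes. The median excess was 18.7-fold in vehicle and 15.7-fold in cisplatin. Cells of 1 library are not replicates, so these are descriptions.

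The largest excess in vehicle was that of Bub1, a spindle checkpoint kinase, at 52.03-fold, and Bub1 stood at 46.7-fold in cisplatin. In cisplatin the largest was that of Dlgap5, a protein of spindle microtubules, at 52.7-fold, against 33.2-fold in vehicle. Both rest on few molecules in unmarked cells, 12 and 10 UMIs for Bub1 and 31 and 11 for Dlgap5. The order at the top is therefore uncertain, with Hmmr close at 47.5-fold and 40.5-fold. Some genes on the list have work outside mitosis and were spread over all cells. Cbx5, which encodes the heterochromatin protein HP1 alpha, was the exception to the count above, at 1.27-fold and 1.37-fold, and Ctcf, the insulator and loop-anchoring protein, stood at 1.52-fold and 1.61-fold. Cenpf was the gene whose excess differed most between the libraries, at 26.6-fold in vehicle and 11.1-fold in cisplatin.

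**Figure D2:**
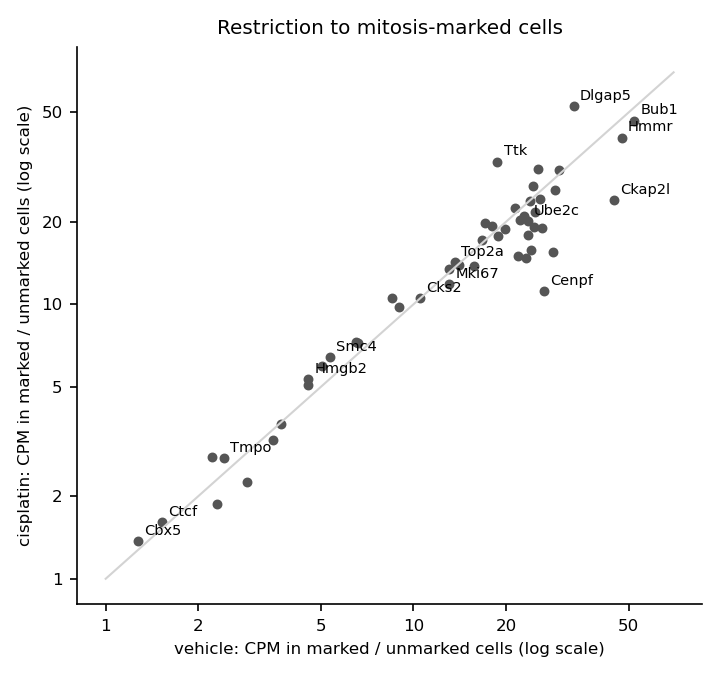
Level in mitosis-marked over unmarked cells (fold, log scales) for each of the 52 genes, vehicle on the horizontal and cisplatin on the vertical axis, with a line of equality. Most genes lie along the line, from Cbx5 near 1.27-fold and 1.37-fold to Bub1 at 52.03-fold and 46.7-fold, and Cenpf lies below it at 26.6-fold and 11.1-fold. Points at the top rest on few UMIs in unmarked cells, 12 and 10 for Bub1.

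Per cell, the load of these transcripts was spread differently. In cells thinned to 3000 UMIs, a marked cell held a median of 32 UMIs of the 52 genes in vehicle and 43 in cisplatin. Among cells with 5 or more marking UMIs the order was the other way, 72 UMIs over 28 distinct genes in vehicle and 55 UMIs over 24 genes in cisplatin. The 95th percentiles of this class were 113 and 91.4, and those over all cells of at least 3000 UMIs were 88 and 74. Unmarked cells held a median of 6 in both libraries. Only 10 vehicle and 12 cisplatin cells held none, so almost every cell held at least 1 UMI of these genes. In unmarked cells the most widely found were Hmgb2, in 67.5% of vehicle and 73.1% of cisplatin cells, and Tubb4b, in 51.9% and 42.2%. Whether some of these UMIs came from RNA outside the cell was not tested.

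Inside marked cells, in CPM, more of the 52 genes passed 1.5-fold downwards than upwards in the cisplatin library. Of the 52 genes, 1 (Cks2) was at least 1.5-fold higher (1.92%, against 6.81% of the 12292 genes measured there), and 10 were at least 1.5-fold lower (19.2%, against 20.9%). The 10 were Mki67, Cenpe, Cenpf, Anln, Hmmr, Ckap5, Top2a, Ndc80, Hjurp and Ncapd2. The share lower was therefore near the background. The count of 10 became 5 with a mitochondrial limit of 5%, 4 without the delta-marked cells described at the end, and 3 when 1 marking UMI was enough, and Cks2 was within 1.5-fold with a limit of 3 marking UMIs or with 16 other marking genes. The median of the 52 was -0.22 against -0.16 for all genes. Under TMM and under median of ratios only Mki67, Cenpe and Cenpf were still 1.5-fold lower and Cks1b joined Cks2 as higher, while 10.8% and 11.4% of all genes were higher and 13.9% and 13.2% lower. Of the 38 genes below 0 in CPM, 8 were above 0 under both of these scalings: Cenpa, Bub1, Cdc25c, Cdc20, Cdca3, Cdca2, Anp32e and Tpx2. For that reason medians of groups are also given relative to the median of all genes.

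**Figure D3:**
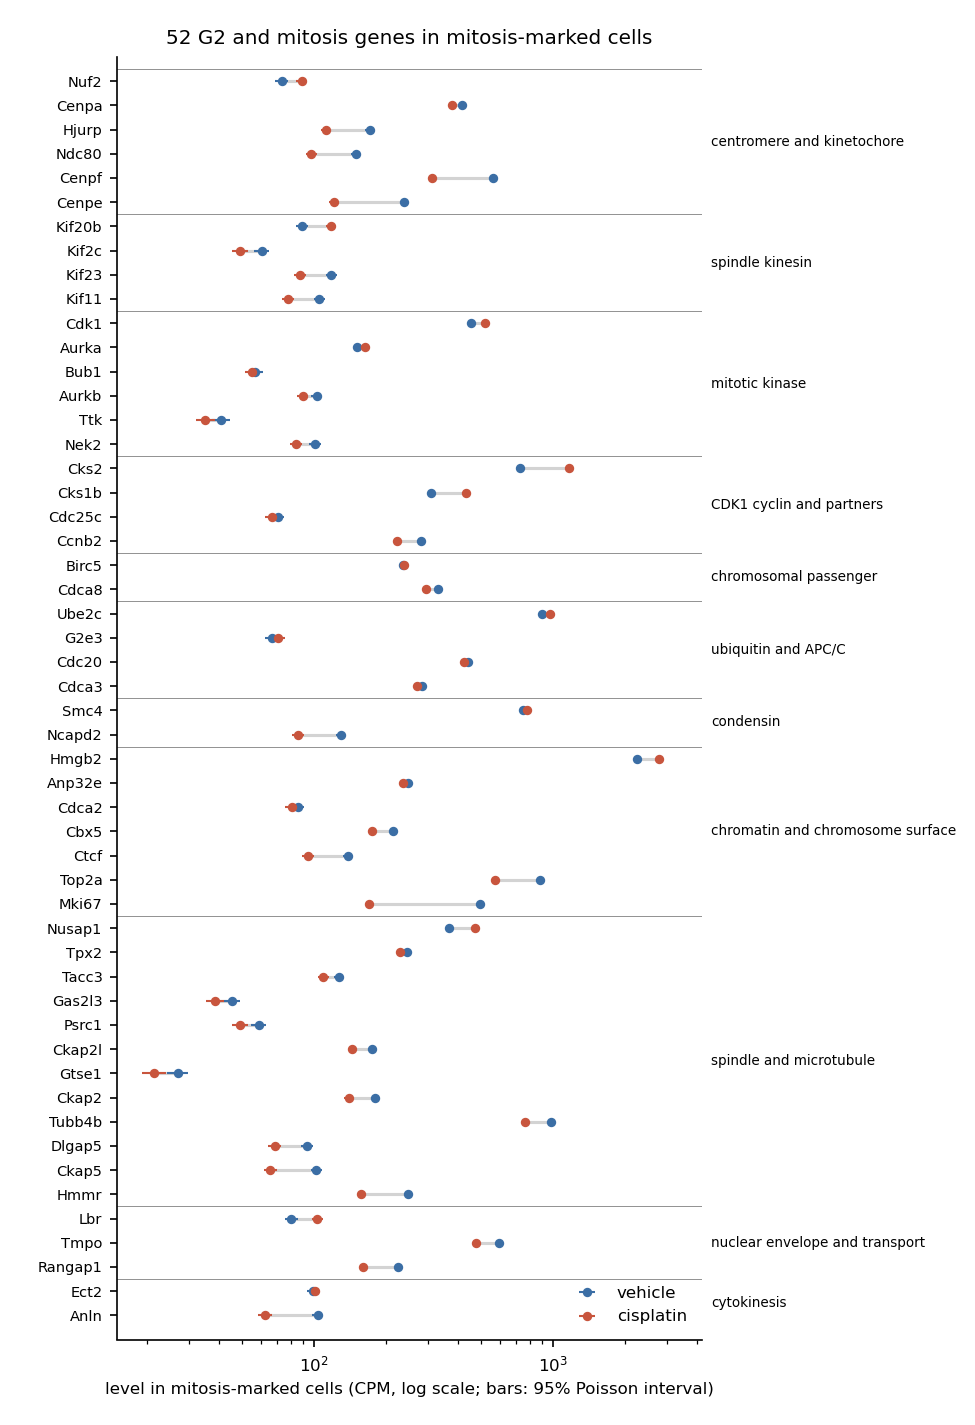
Level in mitosis-marked cells (CPM, log scale, horizontal axis) of each of the 52 genes in vehicle and in cisplatin, with 95% Poisson intervals and a grey bar joining the libraries, in blocks by role. The widest gap is that of Mki67, at 494 and 171 CPM. Under TMM and median-of-ratios scaling 8 genes that lie slightly to the left in cisplatin, among them Cenpa and Tpx2, lie slightly to the right.

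The listed centromere and kinetochore genes were the group that stood lowest. Their proteins build the plate on each centromere that grips microtubules. In marked cells 4 of 6 were at least 1.5-fold lower in cisplatin and none was higher (against 20.9% and 6.81% of all genes). The median log2 ratio of the 6 was -0.61, which is 0.44 below that of all genes. Kinetochore genes of the other programme list, read further below, went differently, and most lay above 0 in marked cells. They ran from Casc5 at -0.61, alone 1.5-fold lower, to Cenpk at 0.72, alone 1.5-fold higher. Cenpe (ENSMUSG00000045328, chr3:135212537-135273611, plus strand), the motor that carries stray chromosomes to the spindle equator, stood at 238 CPM (230 to 247) in vehicle and 121 CPM (116 to 127) in cisplatin, a log2 ratio of -0.97 (-1.06 to -0.89). Cenpf, a large coiled-coil protein of the outer kinetochore, stood at 563 CPM (550 to 576) and 312 CPM (303 to 321), with a log2 ratio of -0.85 (-0.91 to -0.80). Both were also lower in the cells with 5 or more marking UMIs, Cenpe at 381 and 161 CPM and Cenpf at 877 and 413 CPM. In unmarked cells Cenpe stood at 9.36 and 3.90 CPM, while Cenpf lay on the other side, at 21.2 and 28 CPM, a log2 ratio of 0.39 (0.14 to 0.67).

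Ndc80, the microtubule-binding subunit of the complex of the same name, stood at 149 CPM (143 to 156) in vehicle and 97.5 CPM (92.4 to 103) in cisplatin. Hjurp, the chaperone that loads the centromeric histone, stood at 171 CPM (164 to 178) and 112 CPM (107 to 118). Neither was 1.5-fold lower under TMM or median of ratios. The remaining 2 genes stayed within 1.5-fold. Cenpa, that centromeric histone, stood at 416 and 378 CPM, and its log2 ratio of -0.14 was above 0 under both other scalings. Nuf2 encodes the direct partner of Ndc80 in the complex and stood on the other side of 0. Its levels were 73.3 CPM (68.8 to 78.1) and 88.7 CPM (83.8 to 93.8). Spc24, whose product belongs to the same complex, was above 0 too in marked cells, at a log2 ratio of 0.20. Spc25, also of the complex, stood at 0.57, but it is a marking gene and so helped to choose these cells. In all cells, which no marking selects, Spc25 stood at 0.79. Ndc80 was thus the exception in marked cells among the genes of the complex not used for marking.

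Among the 4 spindle kinesins none passed 1.5-fold in marked cells, and their median was -0.36, which is 0.20 below that of all genes. Kif11 (Eg5), the motor that pushes spindle poles apart, stood at 105 CPM (99.8 to 111) in vehicle and 77.8 CPM (73.2 to 82.6) in cisplatin. Kif23, the motor of the centralspindlin complex in cytokinesis, stood at 118 CPM (113 to 124) and 87.7 CPM (82.8 to 92.8). Kif2c (MCAK), which takes microtubules apart at their ends, stood at 60.4 CPM (56.3 to 64.8) and 49.2 CPM (45.6 to 53.1). Kif20b was the kinesin on the other side of 0, at 89.5 CPM (84.4 to 94.7) and 118 CPM (112 to 123), a log2 ratio of 0.39. In cells with 5 or more marking UMIs Kif11 was 1.63-fold and Kif23 1.62-fold lower in cisplatin, and Kif20b stood at 141 and 154 CPM.

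The 6 mitotic kinases all stayed within 1.5-fold, and their median of -0.12 was 0.04 above that of all genes. Cdk1, the kinase that drives entry into mitosis, stood at 455 CPM (444 to 467) in vehicle and 520 CPM (508 to 532) in cisplatin. Aurka, which matures the spindle poles, stood at 152 CPM (145 to 159) and 164 CPM (157 to 171). Bub1 stood at 56.8 CPM (52.8 to 61.0) and 55.1 CPM (51.3 to 59.2), intervals that overlap. The other 3 lay slightly below 0 on the log2 scale. Aurkb, the kinase of the chromosomal passenger complex, stood at 103 and 89.6 CPM, the checkpoint kinase Ttk (Mps1) at 40.8 and 35.1 CPM, and the centrosome kinase Nek2 at 101 and 84.4 CPM. For Ttk the intervals of the levels just overlapped, at 37.5 to 44.4 and 32.1 to 38.4, while that of its log2 ratio of -0.21 was -0.40 to -0.04.

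The partners of CDK1 stood highest of the 11 groups, with a median of 0.21, which is 0.37 above that of all genes. Cks2 (ENSMUSG00000062248, chr13:51645232-51650660, plus strand) stood at 730 CPM (716 to 745) in vehicle and 1163 CPM (1145 to 1181) in cisplatin, a log2 ratio of 0.67 (0.64 to 0.71). Cks1b (ENSMUSG00000028044, chr3:89415472-89418383, minus strand) stood at 309 CPM (299 to 318) and 434 CPM (423 to 445), or 1.41-fold, and passed 1.5-fold under TMM and median of ratios. The pair are small proteins of the same family. Ccnb2, a cyclin that activates CDK1, stood at 281 and 221 CPM, and Cdc25c, the phosphatase that removes the inhibitory phosphates from CDK1, at 70.6 and 66.9 CPM, above 0 under the other scalings.

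The 2 condensin genes parted. Condensins are rings that wind mitotic chromosomes into compact rods. Smc4, a core ATPase shared by both condensin complexes, stood at 749 CPM (734 to 763) in vehicle and 779 CPM (764 to 794) in cisplatin. Ncapd2, a regulatory subunit of condensin I alone, was 1.51-fold lower, at 130 CPM (124 to 136) and 86.0 CPM (81.2 to 91.1), and within 1.5-fold under the other scalings. The other programme list, read further below, holds more condensin genes. Their log2 ratios in marked cells were -0.39 for Smc2, -0.14 for Ncapg, 0.08 for Ncaph, -0.67 for Ncapd3, -0.28 for Ncapg2 and -0.41 for Ncaph2. Of these Ncapd3 alone was 1.5-fold lower and Ncaph alone lay above 0.

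Among the 7 chromatin and chromosome surface genes, Mki67 and Top2a were at least 1.5-fold lower in marked cells and none was higher, with a median of -0.30. Of all genes, 20.9% were that much lower and 6.81% that much higher. Mki67 (ENSMUSG00000031004, chr7:135689784-135716361, minus strand) encodes a protein that coats mitotic chromosomes and keeps them apart (gene coordinates here are from GENCODE M21, GRCm38). It stood at 494 CPM (482 to 506) in vehicle and 171 CPM (164 to 178) in cisplatin, a log2 ratio of -1.53 (-1.60 to -1.47). Top2a, which encodes topoisomerase II alpha and untangles sister chromatids, stood at 879 CPM (863 to 895) and 574 CPM (561 to 586). At the other end Hmgb2 stood at 2238 CPM (2213 to 2264) and 2770 CPM (2743 to 2798).

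The difference in Mki67 was found in cells of every class. Its level in unmarked cells was 37.9 CPM for vehicle and 14.4 CPM for cisplatin, and in cells with 5 or more marking UMIs at 721 and 214 CPM, a 3.37-fold difference. At 3000 UMIs per cell, 58.2% of marked cells in vehicle (55.4 to 61.0) and 34.2% in cisplatin (32.0 to 36.6) held an Mki67 UMI, and 78.4% and 58.3% without thinning. In unmarked cells the thinned shares were 9.09% and 4.09%, and without thinning 19.9% and 8.19%. Barcodes with immune, endothelial or fibroblast markers numbered 27 and 5, a count that takes in no club, alveolar or erythroid markers. Of these, 5 of 27 in vehicle (18.5%, 6.30 to 38.1, not thinned) and 1 of 5 in cisplatin held an Mki67 UMI, at median depths of 8113 and 7097 UMIs, against 10083 and 7782 in marked cells. Such cells can divide too, and the shares in marked cells lie above them in vehicle.

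The 12 spindle and microtubule genes had a median of -0.30, and 2 of them were at least 1.5-fold lower in marked cells. That is 16.7%, below the 20.9% of all genes. Hmmr, which encodes a microtubule-associated protein of spindle poles, stood at 246 CPM (238 to 255) in vehicle and 158 CPM (151 to 164) in cisplatin. Ckap5 (ch-TOG), a microtubule polymerase, stood at 102 CPM (96.8 to 108) and 65.7 CPM (61.5 to 70.2). Neither passed 1.5-fold under the other scalings. Nusap1 was the only one of the 12 above 0, at 366 CPM (355 to 376) and 473 CPM (462 to 485), while Tpx2, the activator of Aurora A on the spindle, stood at 244 and 229 CPM and was above 0 under both other scalings.

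Of the cytokinesis, chromosomal passenger, ubiquitin and nuclear envelope genes, 1 was at least 1.5-fold lower and none higher (against 20.9% and 6.81% of all genes). The lower gene was Anln, which encodes the contractile ring scaffold anillin, at 104 CPM (98.1 to 109) in vehicle and 62.5 CPM (58.4 to 66.8) in cisplatin. It was within 1.5-fold under the other scalings. Ect2, the exchange factor that switches on RhoA at the cleavage furrow, stood at 98.8 and 101 CPM. The 2 chromosomal passenger genes were near level, Birc5 (survivin) at 237 and 238 CPM and Cdca8 (borealin) at 331 and 294 CPM.

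The 4 ubiquitin and APC/C genes, several of whose products time the destruction of cyclins and securin, had a median of 0.02 in a narrow range. Ube2c, the ubiquitin-conjugating enzyme of the anaphase-promoting complex, stood at 900 CPM (884 to 917) in vehicle and 968 CPM (952 to 985) in cisplatin, and Cdca3 at 284 and 270 CPM, above 0 under the other scalings. Among the 3 nuclear envelope and transport genes, Lbr (lamin B receptor) stood at 80.4 CPM (75.7 to 85.4) and 103 CPM (97.8 to 109), and Rangap1, which activates the GTPase of Ran, at 225 CPM (217 to 233) and 161 CPM (154 to 168).

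Mki67 is often read as a stand-in for the whole programme, so the sign of every other gene was set against it. Mki67 was lower in the cisplatin library in each class of cells. In all cells 26 of the other 51 genes had a log2 ratio of the opposite sign, 4 of them past 1.5-fold. In marked cells 14 did: Hmgb2, Cdk1, Nusap1, Ube2c, Birc5, Cks2, Nuf2, Cks1b, Smc4, Kif20b, Ect2, Aurka, Lbr and G2e3, of which Cks2 alone passed 1.5-fold. Birc5, at 0.00 after rounding, Ect2, at 0.03, and G2e3, at 0.09, were among the 14 by margins within counting error. In cells with 5 or more marking UMIs 7 did, and none passed 1.5-fold. The 14 were all among the 26, and Hmgb2, Nusap1, Cks2, Nuf2, Cks1b, Kif20b and Lbr stood opposite in all cells and in the marked, unmarked and 5-or-more classes. Some of these signs were within counting error: Nuf2 stood at 0.02 (-0.10 to 0.15) in the 5-or-more class and at 0.14 (-0.48 to 0.82) in unmarked cells, Nusap1 at 0.30 (-0.04 to 0.68) and Lbr at 0.03 (-0.19 to 0.25) in unmarked cells. In cells with 1 marking UMI, 20 genes stood opposite, and Nuf2 (-0.10) and Lbr (-0.01) did not. Under TMM and under median of ratios the count in marked cells was 22.

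Cells with 5 or more marking UMIs gave the lowest ratios. There 16 of the 52 genes were at least 1.5-fold lower (30.8%, against 20.4% of 11611 genes measured) and 0 were higher (against 7.06%), with a median of -0.43 against -0.16. The 16 were the 10 named for marked cells with Ctcf, Rangap1, Dlgap5, Kif11, Kif23 and Ckap2. This limit of 5 was chosen after the data were seen, and the vehicle cells in this class held more marking UMIs (13 against 11). In unmarked cells 46 of the 52 genes reached 50 UMIs. Of those 46, 3 were higher (Cks2, Ckap2l and Kif20b, against 7.41% of all genes) and 6 lower (Mki67, Top2a, Ctcf, Hjurp, Ncapd2 and Cenpe, against 22.8%). These counts became 1 higher with another seed or without delta-marked cells, and 9 higher and 2 lower with the other marking genes. Ckap2l and Kif20b rested on few molecules there, at 43 and 51 UMIs and at 40 and 52 UMIs. In marked cells Ckap2l stood at 175 and 145 CPM.

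**Figure D4:**
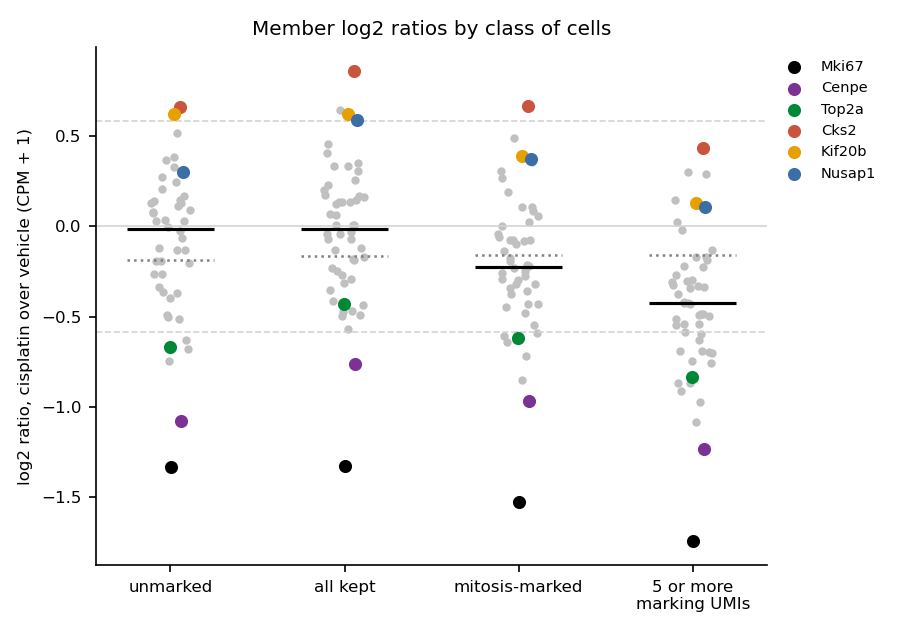
Log2 ratio of cisplatin over vehicle (1 CPM added, vertical axis) of the 52 genes in 4 classes of cells, with solid bars at their median, dotted bars at the median of all genes and dashed lines at 1.5-fold in each direction. Mki67 is the lowest point in every class, from -1.33 to -1.75, and Cks2 the highest, from 0.86 in all cells to 0.43 in cells with 5 or more marking UMIs. Under TMM the zero line would lie about 0.16 lower.

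The ratio of a gene in marked cells moved with the length of its transcript, in all genes and in these 52. For all genes measured, the median log2 ratio was 0.14 for transcripts under 1000 bases, 0.04 from 1000 to 2000, -0.14 from 2000 to 4000, -0.32 from 4000 to 6000 and -0.46 above 6000. The corresponding medians of the G2 and mitosis genes were 0.58, -0.16, -0.24, -0.43 and -0.63, over 2, 10, 22, 11 and 7 genes. Cks2 (692 bases) and Cks1b (849) were the shortest, and Cenpf (11130) and Mki67 (10061) the longest.

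With the trend of all genes on length subtracted, 3 of the 52 genes were at least 1.5-fold lower in marked cells and 1 was higher (against 17.5% and 6.46% of all genes). Mki67 stood at -1.18, Ndc80 at -0.70 and Cenpe at -0.67, while Cenpf came to -0.48. Kif20b, with a transcript of 5564 bases, stood at 0.60, and Cks2 came to 0.36 and Cks1b to 0.22. With the trend subtracted, Cks2 was thus within 1.5-fold. In all cells the same subtraction left Kif20b (0.83) and Nusap1 (0.65) higher and Mki67 (-0.96) lower, against 7.45% and 18.4% of all genes.

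**Figure D5:**
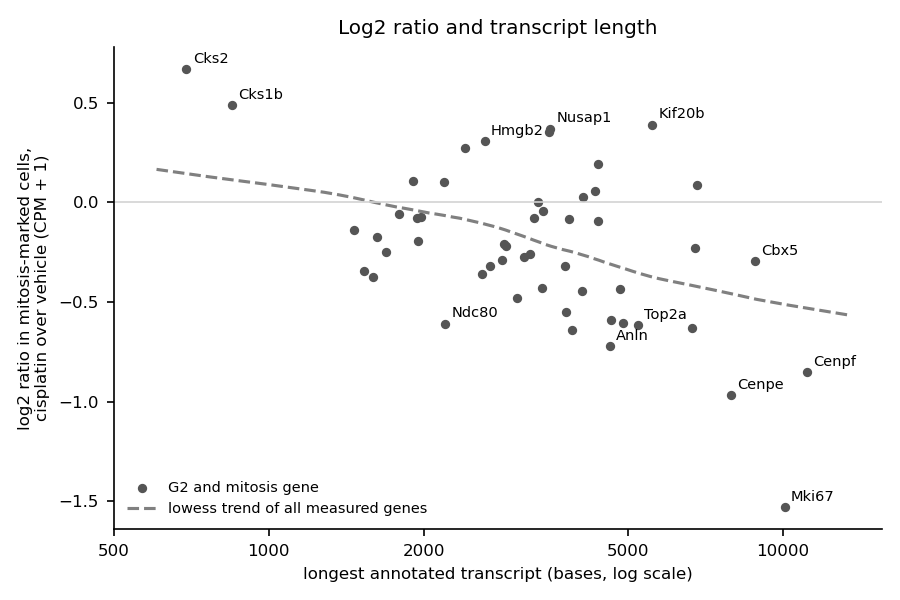
Log2 ratio in mitosis-marked cells (cisplatin over vehicle, 1 CPM added, vertical axis) against the longest annotated transcript (bases, log scale) of each of the 52 genes, with the lowess trend of all measured genes dashed. Mki67 lies far below the trend at 10061 bases and Kif20b above it at 5564 bases, and Cks2 and Cks1b lie at the short end. Under TMM or median of ratios all points and the trend would lie about 0.16 or 0.17 higher, and 8 points just below 0 would pass it.

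Other genes of the same programme were read from a list of 57 that are neither among the 52 nor among the 12 marking genes. Some of the 57, such as Spc24 and Sgol2a, are among the 16 other marking genes used as an alternative. In marked cells 2 of 57 passed 1.5-fold upwards in cisplatin and 9 downwards (3.51% and 15.8%, against 6.81% and 20.9% of all genes), with a median of -0.02 against -0.16 for all genes. In all cells the counts were 5 and 3 (8.77% and 5.26%, against 8.09% and 21.7%). The scaling altered this, with 7 higher and 4 lower under TMM in marked cells and 7 and 3 under median of ratios. Kif14, a kinesin of cytokinesis, stood at 25.7 CPM (23.0 to 28.6) in vehicle and 10.9 CPM (9.27 to 12.8) in cisplatin, with a log2 ratio of -1.16. Wee1, the kinase that holds CDK1 inactive until mitosis, stood at 54.9 CPM (51.0 to 59.0) and 30.7 CPM (27.8 to 33.7). Sgol2a (shugoshin 2), which protects cohesin at centromeres, stood at 111 CPM (105 to 117) and 65.2 CPM (61.0 to 69.6). On the other side Lin52, a subunit of the MuvB core, stood at 13.6 CPM (11.7 to 15.8) and 23.7 CPM (21.2 to 26.4).

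The cisplatin library held a set of cells nearly missing from vehicle, 796 barcodes (18.9%) against 17 (0.463%), in which at least 3 of Hhex, Isl1, Hoxb8, Sfrp5, Gfra4 and Pnoc were detected. Several of these genes are known from delta cells of the pancreas. They were picked with earlier results of these data known. Mitosis-marked cells made up 37.8% of them (34.4 to 41.4) and 43.9% of the other cisplatin cells (42.1 to 45.7), at median depths of 8177 and 5952 UMIs. Among marked cells of that library, 0 of the 52 genes were at least 1.5-fold higher in the delta-marked cells (against 11.2% of all genes) and 8 were at least 1.5-fold lower (against 16%). These were Cdc20, Psrc1, Ckap2, Nusap1, Top2a, Aurkb, Hmgb2 and Ect2, and none of the 52 was 1.5-fold lower when 2 of the 6 genes were enough to mark a cell.

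Cdc20, the activator that the spindle checkpoint restrains, stood at 225 CPM in the delta-marked and 479 CPM in the other marked cells of the cisplatin library, and Hmgb2 at 1932 and 3002 CPM. Mki67 stood at 136 and 180 CPM, both under the 494 CPM of vehicle. Leaving delta-marked cells out of both libraries, 1 gene was higher and 4 were lower in marked cells of cisplatin (against 5.06% and 20.2% of all genes), the 4 being Mki67, Cenpe, Cenpf and Anln, with a median of -0.17.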

How the data were processed

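Single-cell RNA was read as deposited raw counts of UMIs per gene and barcode, whole numbers with no normalization per the file headers. Cell Ranger 2.0.2 and mm10 are named in the submitters' processing notes, with no role, and whether counting used strand is not given in the sources used here. Genes with close relatives or overlapping neighbours, such as Cks1b, Hmgb2, Tubb4b and Cbx5, could share reads with them, so their levels are uncertain. Barcode and gene name files gave only identities.

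Barcodes with under 500 genes or over 10% mitochondrial UMIs were removed (54 vehicle, 36 cisplatin). No doublet caller was run, and an alternative leaves out the top 1% of barcodes by UMIs. UMIs were summed per class of cells, scaled to 1000000 and compared as log2 ratios with 1 CPM added. A gene was measured at 50 UMIs or more over both libraries. The 95% intervals of sums are exact Poisson ones, and those of shares of cells are exact binomial (Clopper-Pearson). PCR copies are collapsed by the UMIs, and the intervals cover counting error only. Thinning for the marking genes used seed 1, and the counts of the 52 genes in thinned cells came from a separate draw with its own seed. Depth sets the width of each interval: the 52 genes had at least 715 UMIs each. Lengths are of the longest GENCODE M21 transcript, with a lowess trend (fraction 0.3) over all genes.

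Tools were Python 3.11.15, numpy 2.4.6, scipy 1.17.1, pandas 2.3.3, statsmodels 0.14.6, matplotlib 3.10.9, R 4.3.3, edgeR 4.0.16 (TMM factors only) and DESeq2 1.42.0 (size factors only). Only the 1.5-fold call on summed counts was tried on simulated data. Thinning, marking, filtering, scaling and the length trend were not tried in this way. Alternatives changed the scaling, pseudocount, floor, fold, filters, thinning, marking genes and thresholds.

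The 52 genes, the lists of other genes, the markers and the roles were chosen with earlier results of these data known. Named with values were Mki67, each of the 52 past 1.5-fold in all or marked cells, the highest and lowest of each role in marked cells, all kinetochore, kinesin, kinase and condensin genes, and up to 4 other programme genes with the largest ratios. Genes named beyond this rule were chosen after their values were seen. An item of the labelled genotype is not reported here.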

Additional observations from a re-analysis of the deposited data

How the results depend on the processing

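The values that answer a comparison were counts of genes or groups and the ratio of marked shares. Under the alternatives 187 of them were labelled as the same and 50 as moved. A count has no direction that could reverse, and the label of same allowed some change. Under median of ratios, for example, the count opposite to Mki67 in all cells went from 26 to 35 and was labelled the same. Of the other values 267 held and 167 moved. The causes of these moves were not tested, except that a 2-fold limit and a 5-UMI limit are stricter by construction.

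In marked cells, TMM gave 2 of the 52 genes higher and 3 lower, with 22 opposite to Mki67, and median of ratios gave 2, 3 and 22, against 1, 10 and 14. For the 57 other programme genes the counts were 7 higher and 4 lower under TMM and 7 and 3 under median of ratios in marked cells, and 10 and 1, and 11 and 1, in all cells. A 2-fold limit left 0 of the 52 higher and 1 lower in both classes of cells. It left 0 and 0 of the 57 in all cells and 0 and 1 in marked cells. The share of all genes past 2-fold is not given here, so these counts have no background beside them. With the length trend removed, 2 of the 52 were higher and 1 lower in all cells, 3 were lower in marked cells, and 3 of the 57 were lower there. With no floor 7 of the 11 roles lay below the median of all genes in all cells.

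With a limit of 1 marking UMI, 2 of the 52 were higher, 3 lower and 22 opposite to Mki67, and 5 of the 57 were higher. With 3 UMIs, 0 were higher and 8 opposite, with 16 other marking genes 0 and 8, and with 5 UMIs, chosen after seeing the data, 0 were higher, 16 lower and 7 opposite. The ratio of marked shares, 1.21, was 1.07 with 1 UMI, 1.33 with 3, 1.47 with 5, 1.29 at 2000 UMIs per cell and 1.28 with the other marking genes. A mitochondrial limit of 5% left 5 lower and leaving out delta-marked cells left 4. In unmarked cells 1 gene was higher without delta-marked cells, 1 with another seed, and 9 were higher and 2 lower with the other marking genes. When 2 delta marker genes were enough, 0 of the 52 were lower in delta-marked cells. No paired analysis was possible because each group is 1 library. What depth limits are the genes of a few CPM in unmarked cells.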
